A study of Mus musculus with 5 samples.

Results

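The regions described here are places in the mouse lung genome where all 4 antibodies against NKX2-1 gave a peak and where the strongest summit lay within 1 kb of an end of at least 2 different protein-coding genes. They were selected on the peak calls and on the summit position: overlapping peaks of the 4 lists (1 bp or more) were merged, and the summit of a region was that of its peak with the highest pileup. The merging gave 68919 regions, of which 31606 (45.9%) had a peak of all 4 antibodies, and 1158 of these 31606 (3.66%) met the position rule. Another 5945 four-antibody regions lay within 1 kb of an end of 1 gene, 14901 lay farther inside a gene and 9602 lay outside genes. Of the 1158 regions, 1140 were at 2 genes and 18 at 3 genes, and together they touched 2145 genes.

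The chromatin was that of wild-type mouse lung, taken whole at postnatal day 10 and immunoprecipitated with the antibodies Abcam133737, Millipore07-601, Abcam76013 and Abcam133638 (1 library each), beside 1 input library that served as the control of every peak list. The study's title concerns the control of alveolar type 1 (AT1) cells, the flat cells of gas exchange, by NKX2-1. Libraries held 43031331 to 46547989 tags after removal of duplicates and gave 40877 to 57891 peaks. The protocol pools sonicated chromatin, so the 4 libraries may share 1 preparation, and no value below has a replicate error. Intervals are exact Clopper-Pearson 95% intervals and cover counting error only. In whole lung, NKX2-1 on fewer cells and less NKX2-1 per cell cannot be told apart, and the labels do not tie a region to a cell type.

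NKX2-1 is a homeodomain transcription factor of lung, thyroid and forebrain, and in the lung it is a factor of the epithelium. NK2 homeodomains contact short elements such as CACTCAAG, found at thyroid and surfactant genes. Where the starts of 2 genes lie close together on opposite strands, the DNA between them is called a bidirectional promoter. Such promoters are usually rich in CpG, lack a TATA box and often serve housekeeping genes, among them genes of DNA repair and of mitochondria. Neighbouring genes can also lie in tandem, where the end of one faces the start of the next, or converge, where the ends face each other.

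To show what lies under these summits, the DNA between divergent starts is given for the 8 regions of highest mean fold enrichment among 140, followed by the 4 of lowest mean fold among them. These 140 are those of the 174 divergent regions with the summit between both genes that had a gap of at least 60 bp, promoter sequence over more than 60 bases around the summit, and no other gene there. Fold enrichment is the authors' value of tags at the summit over the local background, and mean fold is the mean of the 4 antibodies. The plus strand of mm10 (GRCm38.p6), from RefSeq's promoter sequences, is written 5′ to 3′, up to 75 bases to either side of the summit and with no base of either gene. Capitals mark matches on either strand to the listed NK2 words, which are given with the word counts further on, and to CACTC, the first bases of CACTCAAG (on the other strand it reads GAGTG). The choice of CACTC was made after looking at these sequences, so they do not support it. Of the 8 highest, 6 held CACTC, of the 4 lowest, 2 did, and of all 140, 40 did; the stretches differ in length.
Zfp142/Bcs1l, chr1:74588134-74588212, mean fold 29.1: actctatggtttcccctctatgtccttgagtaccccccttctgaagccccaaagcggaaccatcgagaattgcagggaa
Gmpr2/Nedd8, chr14:55672130-55672234, mean fold 28.1: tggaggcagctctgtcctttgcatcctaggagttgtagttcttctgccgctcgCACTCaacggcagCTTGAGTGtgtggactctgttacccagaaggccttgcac
Zcchc3/6820408C15Rik, chr2:152415045-152415149, mean fold 26.3: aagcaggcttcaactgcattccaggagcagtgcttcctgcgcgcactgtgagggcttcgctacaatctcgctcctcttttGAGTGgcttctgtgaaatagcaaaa
Xab2/Pet100, chr8:3621335-3621480, mean fold 22.0: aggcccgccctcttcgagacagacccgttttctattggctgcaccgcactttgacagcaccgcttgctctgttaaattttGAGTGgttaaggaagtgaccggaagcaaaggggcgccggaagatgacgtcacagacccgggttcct
Smtnl1/Timm10, chr2:84826848-84826987, mean fold 20.9: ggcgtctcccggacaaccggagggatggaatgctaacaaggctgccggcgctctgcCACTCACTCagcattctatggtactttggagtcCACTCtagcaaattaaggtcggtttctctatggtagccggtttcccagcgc
C2cd3/Ppme1, chr7:100372050-100372200, mean fold 17.5: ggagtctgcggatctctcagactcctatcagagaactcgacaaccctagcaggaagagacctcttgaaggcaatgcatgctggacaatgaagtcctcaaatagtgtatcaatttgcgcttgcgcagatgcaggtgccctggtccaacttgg
Cks1b/Shc1, chr3:89418319-89418469, mean fold 16.7: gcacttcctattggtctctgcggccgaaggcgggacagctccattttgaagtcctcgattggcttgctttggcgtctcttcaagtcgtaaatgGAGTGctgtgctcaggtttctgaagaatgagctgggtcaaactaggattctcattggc
BC055324/Mettl18, chr1:163994810-163994888, mean fold 16.2: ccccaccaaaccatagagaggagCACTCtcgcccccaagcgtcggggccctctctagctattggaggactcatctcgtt
Txndc12/Btf3l4, chr4:108834533-108834677, mean fold 4.12: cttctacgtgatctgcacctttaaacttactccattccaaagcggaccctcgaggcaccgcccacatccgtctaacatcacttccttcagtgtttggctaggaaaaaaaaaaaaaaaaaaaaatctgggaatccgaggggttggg
Slc35a5/Atg3, chr16:45158674-45158820, mean fold 3.98: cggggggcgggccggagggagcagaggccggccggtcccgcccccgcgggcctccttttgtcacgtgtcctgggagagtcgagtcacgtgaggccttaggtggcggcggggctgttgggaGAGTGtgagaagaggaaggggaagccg
Ptcd1/Cpsf4, chr5:145167105-145167212, mean fold 3.93: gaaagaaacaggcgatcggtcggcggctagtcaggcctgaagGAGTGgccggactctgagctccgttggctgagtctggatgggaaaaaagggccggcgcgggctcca
Ubqln4/Lamtor2, chr3:88553598-88553676, mean fold 3.13: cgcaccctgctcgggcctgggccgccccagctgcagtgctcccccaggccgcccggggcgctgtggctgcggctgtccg

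The first question is how often gene ends that lie side by side carried such a region. Among all pairs of neighbouring protein-coding gene ends up to 1 kb apart, 65.0% of the divergent pairs did (587 of 903, interval 61.8 to 68.1). The share was 31.4% for tandem pairs (160 of 509, interval 27.4 to 35.7) and 4.41% for convergent pairs (32 of 726, interval 3.03 to 6.17). For gene ends with no other gene end within 2 kb, it was 26.5% of lone starts (3729 of 14072) and 3.07% of lone ends (425 of 13828). Divergent pairs thus lay above lone starts, tandem pairs somewhat above lone starts, and convergent pairs close to lone ends. A divergent pair offers 2 starts and a lone start 1, and a pair counts only if the summit is within 1 kb of both ends. With a peak of any antibody in place of all 4, the shares were 89.9% of divergent, 51.9% of tandem and 9.23% of convergent pairs. Strand came from RefSeq's promoter table, which held 17492 of the 21887 genes. Pairs with a gene of unknown strand carried a region in 256 of 883 cases (29.0%).

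**Figure D1:**
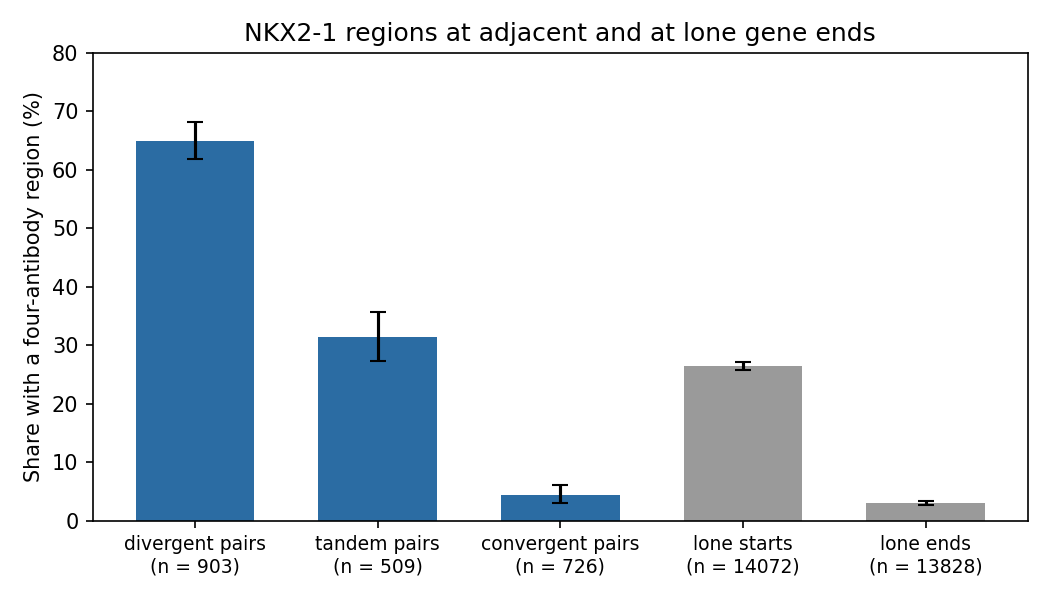
The vertical axis is the share of pairs of neighbouring gene ends up to 1 kb apart (blue, by arrangement) and of lone starts and ends (grey) that carried a region of all 4 antibodies, with n under each bar and 95% Clopper-Pearson intervals as error bars. Divergent pairs stand at 65.0% and tandem pairs at 31.4%, against 26.5% of lone starts, while convergent pairs (4.41%) and lone ends (3.07%) stand near the base of the plot.

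The divergent share showed no steady order with the spacing of the starts within 1 kb. It was 59.3% where the gene bodies overlapped (191 of 322), 68.8% at gaps under 100 bp (198 of 288), 65.2% from 100 bp to below 200 bp (86 of 132), 70.6% from 200 bp to below 500 bp (84 of 119) and 66.7% from 500 bp to below 1 kb (28 of 42). All 5 intervals overlap. CpG content differed between the sets and was set beside the shares. The ratio of observed to expected CpG in the promoter (250 bases before to 50 after the start) was at least 0.8 in 54.7% of divergent pairs, as the mean of both promoters, against 24.7% of lone starts. Within that class, 67.0% of divergent pairs (331 of 494, interval 62.7 to 71.1) and 48.0% of lone starts (1671 of 3479, interval 46.4 to 49.7) carried a region. In the class from 0.6 to below 0.8 the shares were 71.2% of divergent pairs and 42.8% of lone starts. From 0.4 to below 0.6 they were 56.3% and 28.6% in the same order of sets, and below 0.4 they were 23.8% of 42 divergent pairs and 6.90% of 6191 lone starts. The divergent share was thus above the lone-start share in each CpG class. Tandem pairs at a CpG ratio of at least 0.8 stood at 45.5% (60 of 132, interval 36.8 to 54.3), which includes the 48.0% of lone starts. In the class below 0.4, which held the most tandem pairs, they stood at 12.1% (19 of 157, interval 7.45 to 18.3), above the 6.90% of lone starts. From 0.4 to below 0.6 they stood at 33.3% and from 0.6 to below 0.8 at 39.0%. The CpG classes were added after values were seen.

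By chromosome, pairs up to 1 kb apart of any arrangement carried a region in 28.2% to 42.7% of cases on the autosomes (1030 of 2953 in all, 34.9%, interval 33.2 to 36.6). On chromosome X they did in 5 of 68 cases (7.35%, interval 2.43 to 16.3). Sex, gene content and copy number on X were not examined here.

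Among the 1158 regions themselves, the strands of both genes were known for 873, of which 626 were divergent (71.7%, interval 68.6 to 74.7), 181 tandem (20.7%), 34 convergent (3.89%) and 32 had both genes on the same side of the summit (3.67%). The name "between gene ends" held for a minority. The summit lay in the gap between both genes in 401 of 1158 regions (34.6%, interval 31.9 to 37.4), and in 300 the bodies of both genes overlapped, so that no gap existed. The regions fell on 1099 distinct gene pairs, and 58 pairs had more than 1 region, which share a locus and are not independent. The pair Ang and Rnase4, ribonuclease genes known to share promoters, had 3.

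The position of the summit was part of how the regions were chosen and is described without a test. At the 626 divergent regions its median distance from the midpoint of both starts was 114.5 bp, and in 413 (66.0%) it lay within 100 bp of a start. The region itself reached across both starts in 424 (67.7%), so that the peak cannot be given to either gene. At tandem pairs, by contrast, the summit was nearer the start of one gene than the end of the other in 155 of 181 regions (85.6%, interval 79.7 to 90.4), at a median of 110 bp from the start and 490 bp from the end. The region spanned both in 30 (16.6%). The position rule admits any summit within 1 kb of both ends and does not favour the start over the end.

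**Figure D2:**
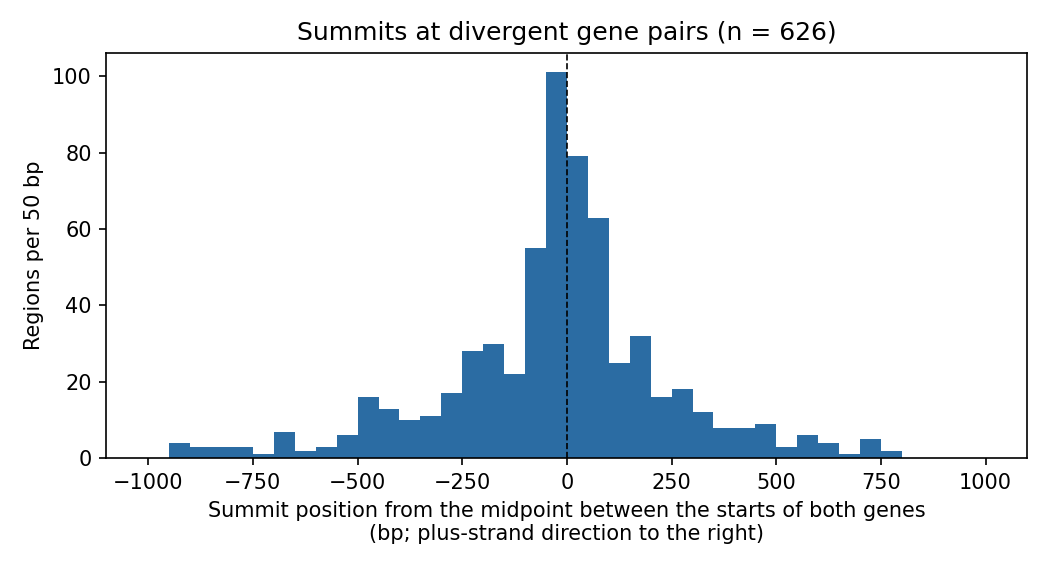
The horizontal axis is the distance in bp from the midpoint between the starts of both genes to the summit at the 626 divergent regions, and the bars count regions per 50 bp. Summits pile up around the midpoint, with a median absolute distance of 114.5 bp, and thin out to both sides. The position rule keeps summits within 1 kb of both starts, so a place near the midpoint is partly built in. The median distance was 293 bp at gaps of 500 bp or more and 196 bp where gene bodies overlapped.

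The region of highest mean fold (32.4) lay 14 bp from an end of Rps6kb2, a kinase of ribosomal protein S6, and 955 bp from Carns1, which encodes carnosine synthase (mm10, chr19:4163078-4163530). Its folds were 27.8 with Abcam133737, 34.1 with Millipore07-601, 31.5 with Abcam76013 and 36.2 with Abcam133638, and the 4 summits lay within 10 bp. The strongest divergent region was that of Zfp142, a zinc finger gene, and Bcs1l, an assembly factor of respiratory complex III (chr1:74587750-74588570). It had folds of 26.8, 33.2, 23.3 and 33.2 in the same order of antibodies, with the summit 4 bp from the start of Zfp142. Next came Gmpr2, a GMP reductase, and Nedd8, a ubiquitin-like modifier (chr14:55671625-55672589), with folds of 22.6, 36.0, 22.9 and 31.0. Zcchc3 and 6820408C15Rik followed (chr2:152414727-152415335), with 22.7, 31.7, 20.4 and 30.2. In these divergent regions the 2 antibodies with the longer lists, Millipore07-601 and Abcam133638, gave the higher folds.

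The strongest tandem region lay 237 bp from the start of Pde4c, a cAMP phosphodiesterase, and 963 bp from the end of Gm3336 (chr8:70723162-70724047), with folds of 21.2 with Abcam133737, 33.2 with Millipore07-601, 22.9 with Abcam76013 and 32.3 with Abcam133638. Psme1, a proteasome activator subunit, had a region 567 bp from its start and 975 bp from the end of Fitm1 (chr14:55577723-55578600) with a mean fold of 21.0. Rgl2, which acts on Ral GTPases, had one 59 bp from its start and 165 bp from the end of Tapbp, the tapasin gene of antigen loading (chr17:33929269-33929716), with a mean fold of 20.3. These 3 regions lay nearer the start than the end.

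Regions at convergent ends were few, yet 2 of them were among the 10 highest of all 1158. The region at Xpo5, the exporter of microRNA precursors, and Polr1c, a subunit of RNA polymerases I and III (chr17:46242266-46243436), had folds of 20.6 with Abcam133737, 30.9 with Millipore07-601, 21.5 with Abcam76013 and 25.6 with Abcam133638. The region between the ends of Zfp296 and Clasrp, a regulator of splicing (chr7:19580519-19581007), had 21.8, 28.6, 18.5 and 26.5 in that order. The third, at Trpc4ap and Myh7b, a myosin heavy chain gene (chr2:155632948-155633707), had a mean fold of 19.8. Of the 34 convergent regions, 4 (11.8%, interval 3.30 to 27.5) were in the highest 10% of all four-antibody regions, beside 33 of 626 divergent regions (5.27%). The share was 11.2% at the end of 1 gene, 11.5% inside genes and 11.3% outside genes, so convergent regions did not stand above these.

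The other regions of the highest 10 were at Ifi27 and Ifi27l2a, genes induced by interferon (chr12:103433908-103434375, mean fold 24.7), at Gemin4, a protein of the SMN complex, and Dbil5 (chr11:76216543-76217120, 23.9), and at Cep170b and Gm46382 (chr12:112721028-112721863, 23.8). At Gemin4 the summit lay 746 bp from its start and 787 bp from that of Dbil5, outside the 40 bp gap. The highest regions with both genes on the same side were at LOC114841036 and Fkbp2 (mean fold 12.6), Pet117 and Kat14 (10.7), and Ang and Rnase4 (10.4). Of the 18 regions at 3 genes, the strongest was at Cab39l, Gm45935 and Setdb2 (chr14:59440627-59441308), with folds of 14.6, 17.5, 12.3 and 19.2 from Abcam133737 to Abcam133638 in the order above. The remaining 17 had mean folds of 4.76 to 10.1.

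**Figure D3:**
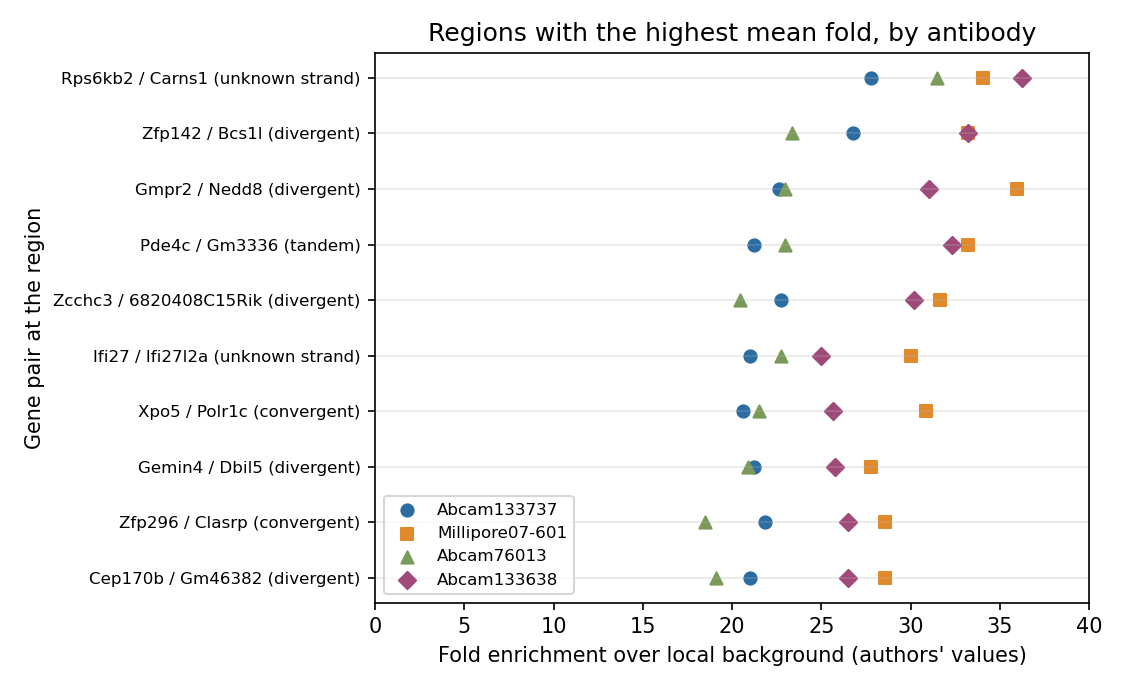
The horizontal axis is the authors' fold enrichment, and each row is one of the 10 regions with the highest mean fold, named by its gene pair and arrangement, with 1 symbol per antibody. The folds with Millipore07-601 and Abcam133638 lie to the right of those with Abcam133737 and Abcam76013 in each row, and the lowest of the points is 18.5.

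The lowest mean fold (2.60) was at Nhej1, a factor of DNA end joining, beside Slc23a3 (chr1:75124547-75125482), with folds of 2.34 with Abcam133737, 2.64 with Millipore07-601, 2.13 with Abcam76013 and 3.31 with Abcam133638. Ubqln4 and Lamtor2 (3.49, 2.13, 2.06 and 4.85) and Elapor1 and 1700013F07Rik (3.71, 3.38, 3.04 and 2.45) had the next lowest mean folds. The local background was 3.37 times the genome-wide one at Nhej1 and 3.29 times at Ubqln4, as the median of the 4 lists; its part in the low folds was not tested. At Elapor1 the summits of the 4 antibodies were up to 487 bp apart. At the 1 kb limit, the farthest region still included was at Ddias and Prcp, 997 bp from the second gene (mean fold 6.23). The nearest left out were at Zfp706 and LOC115488529, 1003 bp (6.40), and at Dtymk and Ing5, 1005 bp (4.56).

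As a group, regions at adjacent gene ends were about as strong as those at 1 gene end. Their median fold was 5.96 against 5.76 at 1 gene end with Abcam133737, 7.83 against 7.61 with Millipore07-601, 5.89 against 5.68 with Abcam76013 and 8.62 against 8.19 with Abcam133638. The ratio of medians was 1.03 to 1.05 per antibody. Median mean folds were 7.02 at adjacent gene ends, 6.76 at 1 gene end, 7.28 inside genes and 7.27 outside genes. Very strong regions were scarcer at adjacent ends than away from gene ends: 64 of 1158 (5.53%, interval 4.28 to 7.00) were in the highest 10% of four-antibody regions, beside 4.88% at 1 gene end, 11.5% inside genes and 11.3% outside genes. These folds come from the peak calls that chose the regions and are given as a description. Of all merged regions at ends of 2 or more genes, 1158 of 2120 (54.6%, interval 52.5 to 56.8) had all 4 antibodies, beside 49.2% at 1 gene end, 44.8% away from gene ends and 45.9% over all.

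**Figure D4:**
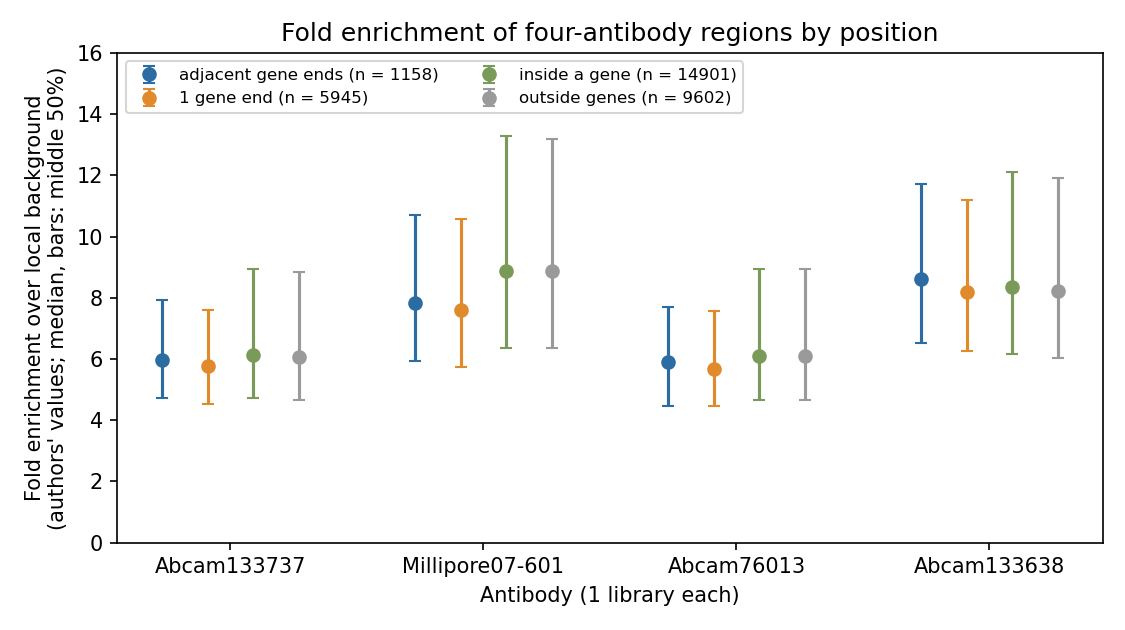
The vertical axis is the authors' fold enrichment of four-antibody regions, with the median as a point and the middle 50% of regions as bars, for the 4 antibodies on the horizontal axis and 4 positions by colour. Regions at adjacent gene ends sit slightly above those at 1 gene end with each antibody, and their upper range is below that of regions inside or outside genes with Millipore07-601.

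The shape and the antibody balance of the regions differed from those away from gene ends. Abcam133638 gave a higher fold than Millipore07-601 in 724 of 1158 regions at adjacent ends (62.5%, interval 59.7 to 65.3) and in 60.7% at 1 gene end, beside 36.3% inside genes and 34.8% outside genes. By the kind of gene end, the share was 64.9% at divergent pairs and 63.4% at the start of 1 gene, but 32.4% at convergent pairs (11 of 34, interval 17.4 to 50.5) and 41.0% at the end of 1 gene. With the pileup scaled to filtered tags in place of fold, the share was 55.5% at adjacent ends and 28.1% inside genes. The 2 lists rest on 1 library each, so antibody and library cannot be told apart. Regions at adjacent ends were also wider, with a median of 505 bp beside 472 bp at 1 gene end and 396 bp inside genes. Some antibody had 2 or more peaks within 207 of the 1158 (17.9%), beside 14.4% at 1 gene end and 6.58% inside genes, and all 4 summits lay within 100 bp in 74.8%, beside 78.2% and 88.3% in the same positions. Convergent regions stood apart from the other arrangements here as well, with a median width of 339 bp and all summits within 100 bp in 31 of 34 (91.2%). Regions at the end of 1 gene were similar, with 379 bp and 88.6%, so this was not particular to convergent pairs. Local background above the genome-wide level in any list was as frequent at adjacent ends (44.5%) as at 1 gene end (44.0%).

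Across the 1158 regions, Spearman's rho of fold between antibodies was 0.79 to 0.83 over the 6 pairs of antibodies, beside 0.84 to 0.86 in the other four-antibody regions. These points share the input and possibly the chromatin.

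Sequence was compared in the 101 bp around the summit, which the promoter table covered for 613 of the 1158 regions and for 2189 of the 5945 at 1 gene end, so that only summits close before a start are included. Words were searched on both strands. Of the NK2 words listed, CACTTNA was present in 3.43% of the 613 windows, beside 3.97% at 1 gene end and 3.90% of promoters. CAAGTG was present in 3.92%, beside 3.93% and 4.56% in the same order, and its other strand begins with the same bases as the word before it, so matches can overlap. These 2 words or the longer CACTCAAG were present in 45 of 613 windows (7.34%, interval 5.40 to 9.70). The share was 9.23% at 1 gene end and 7.53% in windows of the same length (150 to 50 bases before the start) of 17492 promoters. The rare CACTCAAG alone was in 6 windows (0.979%), beside 2.51% at 1 gene end and 0.520% of promoters. Over these listed words the regions at adjacent ends thus did not stand above promoters. By mean fold, from the lowest to the highest of 4 equal groups of the 613, any listed word was in 5.23%, 9.15%, 5.23% and 9.80% of windows.

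The shorter CACTC was chosen after values were seen, and in steps that bear on how it is read. It was noticed in the sequences of highest fold and then kept out of 21 words compared by their shares across 4 equal groups of the 613 windows by mean fold. Of these 21, several of which contain or mirror one another, 17 were more frequent in the highest than in the lowest group and 4 less frequent, and CACTC had the largest difference. The gradient by fold is therefore what selected the word, was seen in the same windows it describes, and supports nothing. CACTC was present in 223 of 613 windows (36.4%, interval 32.6 to 40.3), in 36.3% at 1 gene end and in 18.7% of promoters (interval 18.2 to 19.3).

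From the lowest to the highest of the 4 groups, CACTC was in 22.9%, 30.7%, 41.2% and 51.0% of windows, with 153 windows in each (intervals 16.5 to 30.4 for the lowest and 42.8 to 59.1 for the highest). CACTCNA, the longer word with the next largest difference, was in 2.61%, 2.61%, 7.84% and 24.2%. CACTT, which differs in the last base, had 19.0%, 25.5%, 23.5% and 22.9%. It begins the listed NK2 word CACTTNA and the other strand of CAAGTG, so it is not a comparator free of NK2 letters. TGACG, which was among the words that went the other way, had 18.3%, 22.9%, 20.9% and 16.3%. CTCAC, the letters of CACTC in reverse order, was added as a comparator and also went up, with 17.0%, 17.0%, 22.2% and 26.1%. Ranked by each antibody alone, the highest group had CACTC in 47.7% to 54.9% of windows and the lowest in 19.0% to 25.5%; the 4 rankings share their regions and input. Regions at 1 gene end gave 56.3% in their highest and 25.2% in their lowest group of 547 windows, so the values were no higher at adjacent genes. Of the 254 matches at adjacent ends, 88 (34.6%, interval 28.8 to 40.8) were centred within 12 bp of the summit, where 25.8% of the possible positions lie, beside 37.9% of the matches at 1 gene end and 26.3% in the promoter windows. The comparator CTCAC had 34.3% of its matches there at adjacent ends (48 of 140, interval 26.5 to 42.8), so there a place near the summit did not set CACTC apart. At 1 gene end CTCAC had 26.9% of its matches there (interval 23.1 to 31.0), below the 37.9% of CACTC (interval 34.9 to 41.1). GC content was 61.6% in the highest and 63.6% in the lowest group.

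**Figure D5:**
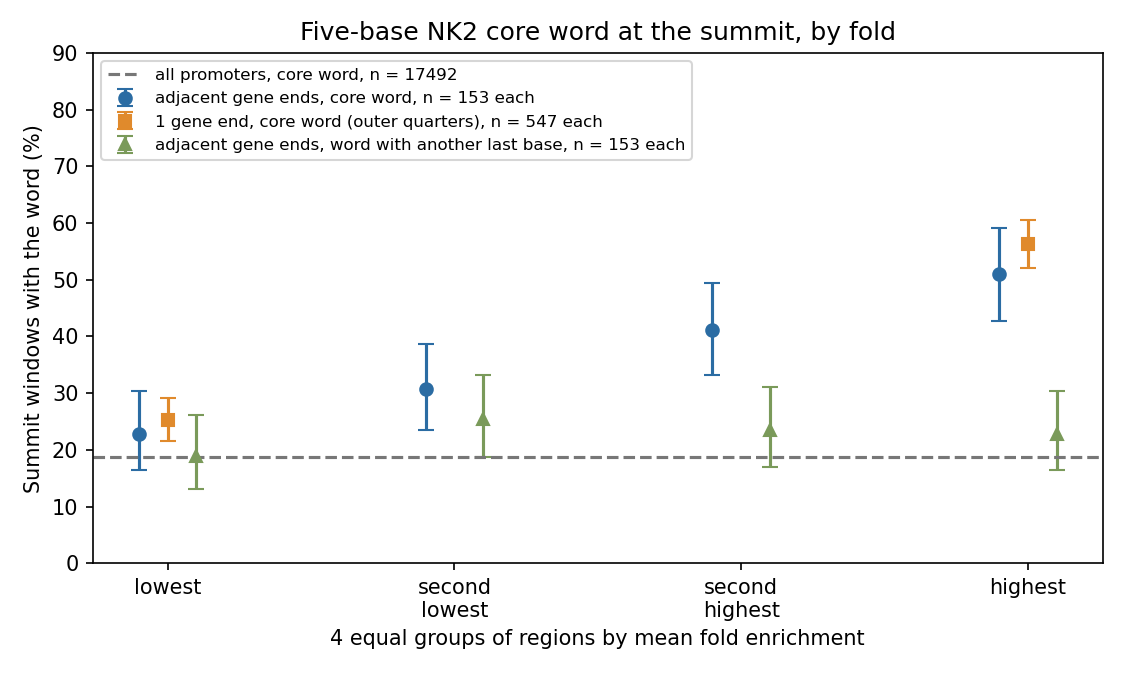
The vertical axis is the share of 101-bp summit windows that held CACTC on either strand, with 95% Clopper-Pearson intervals. CACTC, called the core word in the plot, is the first bases of CACTCAAG and was chosen after values were seen. The horizontal axis gives 4 equal groups of regions by mean fold, the order by which the word was chosen. The share at adjacent gene ends climbs over the 4 groups to 51.0% in the highest. CACTT, the word with another last base and the first bases of the NK2 word CACTTNA, stays between 19.0% and 25.5%. The dashed line is the 18.7% of all promoters.

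Promoter words set the windows at adjacent ends apart from promoters at large more than from those at 1 gene end. GGGCGG, the GC box, was in 44.5% at adjacent ends, beside 45.6% at 1 gene end and 25.5% of promoters. CCGGAA, an ETS element, was in 22.5% (interval 19.3 to 26.0), beside 17.6% (interval 16.0 to 19.2) and 6.46% in the same order, and TATAAA in 0.816%, beside 1.10% and 3.66%. GC content was 62.8%, 63.0% and 56.1%, and the median ratio of observed to expected CpG was 0.825, 0.772 and 0.517. These matches describe letters in these windows and do not show that a factor was bound there.

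The genes at these regions were read against a background of 30.4%: of 7048 protein-coding genes with an end within 2 kb of an end of another gene, 2145 had such a region. Gene lists were chosen with earlier results of these data known. Shares of list members with a close neighbour were highest, among lists with at least 10 such genes, for the mitochondrial ribosome at 26 of 50 (52.0%, interval 37.4 to 66.3), respiratory complex I at 17 of 34 (50.0%, interval 32.4 to 67.6) and DNA repair at 31 of 65 (47.7%, interval 35.1 to 60.5). Ciliary genes followed at 13 of 28 (46.4%), vesicle trafficking at 21 of 46 (45.7%), tRNA synthetases at 8 of 19 (42.1%) and RNA polymerase and Mediator at 16 of 41 (39.0%). Cytosolic ribosome at 16 of 43 (37.2%), DNA replication and mitosis at 10 of 28 (35.7%), proteasome at 8 of 24 (33.3%) and Zfp zinc finger genes at 27 of 81 (33.3%) lay near the background. For the mitochondrial ribosome, complex I, DNA repair and vesicle trafficking the interval lies above 30.4%, by less than 1 percentage point for the last, and for the other lists named here it includes that value. Genes of 1 pair share a region, so the genes of a list are not all independent. Whether the lists differ in the arrangement of their genes was not tested.

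In the mitochondrial ribosome list the strongest regions were at Mrps16 (mean fold 16.6, 6 bp from its start) and Mrpl34 (15.3), and the median over the 26 genes was 7.23, close to the 7.18 of all 2145 genes. Mrpl46 and Mrps11, both of this list, face each other across 41 bp and share 1 region. Among complex I genes, the assembly factor Ndufaf3 had folds of 14.8 with Abcam133737, 17.8 with Millipore07-601, 14.0 with Abcam76013 and 19.6 with Abcam133638, beside Dalrd3. The subunit gene Ndufa5 had a mean fold of 14.9. Of DNA repair genes, Xpc, which recognises damaged DNA, had 16.1 and Rad51b, of homologous recombination, had 12.9. The Xpc summit lay 233 bp from an end of that gene whose strand was unknown here. The summit at Rad51b lay 938 bp from its start and nearer to Zfyve26, so it is not a summit at the Rad51b start.

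Cep290, a gene of the ciliary transition zone, faces Tmtc3 across 182 bp and had folds of 12.9, 19.9, 11.7 and 19.7 from Abcam133737 to Abcam133638 in the order above. Rpgrip1l, of the same zone, faces Fto and had a mean fold of 12.1. For vesicle trafficking the highest were Exoc8 of the exocyst (21.3) and Cope of the COPI coat (13.8). At Exoc8, of a divergent pair, the summit stood at -931 bp from the midpoint of both starts, outside the 65 bp gap. For the transcription list the highest were Polr1c (24.7, given above) and Med29 (15.0). Psme1 (21.0) and Psme2 (14.0), both subunits of the proteasome activator PA28, led the proteasome list. Rpl15 (14.6) and Rpl3l (10.2) led the cytosolic ribosome, Sars2 (12.9) and Yars (9.59) the tRNA synthetases, and Pold1 (11.0) and Mcm7 (9.38) the replication list.

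Genes of lung cell types were few among neighbours this close. Of AT1 genes with a close neighbour, 4 of 6 had such a region (interval 22.3 to 95.7), beside 30.4% over all genes. The strongest was at Ager, the AT1 marker that encodes the receptor for advanced glycation end products, separated from the end of Pbx2 by a gap of 59 bp (chr17:34597467-34597967). Its folds were 14.8 with Abcam133737, 22.8 with Millipore07-601, 18.9 with Abcam76013 and 20.1 with Abcam133638, and the summit lay 272 bp from the start of Ager. The region at Icam1 had a mean fold of 4.98 and lay 727 bp from its end and 109 bp from the start of Icam4. The basement membrane collagen genes Col4a3 and Col4a4 shared a region (4.39). Of AT2 genes 2 of 7 had one: Abca3, the lipid transporter of lamellar bodies (8.23), and Muc1 (4.76, at convergent ends). Of general epithelial genes 2 of 9 had one: Prss8, a membrane protease, beside Kat8 (15.6, 22.0, 16.2 and 21.6 in the order of antibodies above), and Lsr of tricellular junctions (7.12). None of 7 endothelial, 5 mesenchymal and 8 immune genes with a close neighbour did, which allows shares of up to 41.0%, 52.2% and 36.9%. The interval of each cell type list in this paragraph includes the 30.4% of all genes, so these counts do not set the lists apart.

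Of 20 gene pairs of a fixed list, drawn up for shared or facing promoters, 19 had ends up to 2 kb apart and 14 of these carried such a region. Of all divergent pairs up to 1 kb apart 65.0% did, so the count does not set these pairs apart. Gart and Son had the highest mean fold (11.9), followed by Brca1 and Nbr1 (9.47), the mitochondrial chaperonin pair Hspd1 and Hspe1 (8.50), Sirt3 and Psmd13 (8.24), Atm and Npat (7.43) and the purine synthesis pair Paics and Ppat (7.28). In that order, the summit stood at 465, 749, -223.5, -460.5, -73.5 and -666 bp from the midpoint of both starts (plus-strand direction positive). In none of the pairs just named did the summit lie in a gap between both genes. Hspd1 and Hspe1, whose gene bodies overlap with ends 95 bp apart, had folds of 6.38 with Abcam133737, 9.94 with Millipore07-601, 7.51 with Abcam76013 and 10.2 with Abcam133638. Trp53 and Wrap53 had 2 regions, with mean folds of 6.75 and 5.33 and summits at -946 and -74 bp from that midpoint, in the same order. Tap1 and Psmb9 (5.91), Ndufs3 and Kbtbd4 (5.39), Mcm4 and Prkdc (5.19), Tk1 and Afmid (4.61), Cdc45 and Ufd1 (4.40) and Col4a3 and Col4a4 (4.39) had lower ones. Pairs without such a region included Col4a1 and Col4a2, Col4a5 and Col4a6, Surf1 and Surf2, and Foxj1 and Rnf157. The strand of Foxj1 was unknown here, so whether its start faces that of Rnf157 was not shown. The ends of Col4a1 and Col4a2 are 84 bp apart. Those of Col4a3 and Col4a4, which carried a region, are 113 bp apart, and there the gene bodies overlap.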

How the data were processed

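NKX2-1 ChIP-seq peak lists of 4 antibodies on wild-type whole lung were analysed. Each antibody had its own peak list, made by the authors with MACS 2.1.2 against 1 input per the file headers, at a q cutoff of 0.05 and an effective genome size of 1.87 Gb with 1 tag per position. The build was mm10 and the tools included Bowtie, Trimmomatic, deepTools, FastQC and SAMtools, per the submitters' processing notes; versions other than that of MACS are not given in the sources used here. The deposited columns give the pileup signal at the summit, the fold enrichment as a ratio over local background, and the p-value and q-value as −log10. The input held 10653749 filtered tags and was scaled up to each antibody library, per the file headers.

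Peaks were merged and placed with Python 3.11.15, numpy 2.4.6, pandas 2.3.3 and scipy 1.17.1, and drawn with matplotlib 3.10.9. The fold of a region per antibody is that of its highest peak. Genes were 21887 protein-coding RefSeq genes of GRCm38.p6, with strand from RefSeq's promoter table for 17492; exons were not used here. The procedure was tested on simulated peak lists. With 1 library per antibody, no test across samples was run. The genes named are the 10 regions highest by mean fold, the 3 highest of each arrangement, the 3 lowest, the regions with most genes, up to 2 genes per list, the pairs of a fixed list and those just inside and outside 1 kb. Some regions and pairs that this rule names are not reported here. The printed sequences, the CpG classes, the counts by chromosome, the distance of words from the summit, the words by antibody, and the genes Mrpl46 and Mrps11 were chosen after values were seen. So was CACTC, the word with the largest difference between the highest and the lowest group by fold among 21 that were screened. Of the 21, 8 hold CACTC on either strand, and the others held CACTT or pieces of other promoter elements. CTCAC was added later, and CACTT, the first bases of the NK2 word CACTTNA, was kept as a comparator. The list of replication-dependent histones matched 0 gene symbols. Members and lists were chosen with earlier results of these data known. Alternatives covered the distance, peak thresholds, overlap, summit, antibodies, genes and measure of strength.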

Additional observations from a re-analysis of the deposited data

How the results depend on the processing

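No direction reversed under the alternatives tried. Of 72 alternative values, 53 moved by less than their yardstick (interval, spread over antibodies or 1.5 times a count) and 19 moved by more. With 500 bp in place of 1 kb the divergent share of regions was 80.3%. With 2 kb there were 1761 regions, 59.2% divergent, with a ratio of median fold to 1-gene regions of 1.02, and 58.5% of divergent and 20.0% of tandem pairs carried one. At a −log10 q-value of at least 5 the ratio was 1.02, with 56.3% of divergent and 25.3% of tandem pairs. At a fold of at least 5 there were 657 regions with a median mean fold of 8.93, on 39.6% of divergent, 18.3% of tandem and 2.48% of convergent pairs. With transcription starts only, 651 regions were left. Without Abcam133737 the ratio was 1.06 and 68.3% of divergent pairs carried a region, without Abcam76013 71.4% did, and without Abcam133638 the ratio was 1.03. The order of the pair shares, divergent over tandem over convergent, was the same in the 9 alternative settings that gave them; starts only gave none. The stricter thresholds lower the shares by construction. The input held fewer tags than any antibody library, and the effect of depth was not tested. Strand was missing for both or one of the genes at 285 regions. No paired analysis was possible because each antibody has 1 library.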
